A study of Rattus norvegicus with 10 samples.

Results

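Metabotropic glutamate receptors are G-protein-coupled receptors that adjust transmission at glutamate synapses. Group I receptors act through Gq, phospholipase C and calcium release and lie mostly on the postsynaptic side. Group II and group III receptors act through Gi/o, lower cyclic AMP, and many of them lie on axon terminals, where they limit transmitter release. Grm5 belongs to group I, Grm2 and Grm3 to group II, and Grm4, Grm7 and Grm8 to group III. All probe sets that the platform annotation assigns to 1 of these 6 genes and to no other gene were taken, which gave 9 of the 31042 probe sets tested and 6 of 14217 genes. Grm8 was measured by 3 of them, Grm5 by 2, and the other receptors by 1 each. Where a gene had several probe sets, they are called here the brightest, the second and the third by their mean. Grm6, the receptor known from ON bipolar cells of the retina, had 3 probe sets and is given for comparison.

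RNA of the right side of the brain was measured on 10 arrays, each from 1 male Wistar rat aged 7 weeks. In 5 rats (DMHF) the vapor came from DMHF, a dimethyl-hydroxy-furanone that is a food aroma compound, and in 5 rats (control) from distilled water. Inhalation lasted 5 min and death followed 10 min later. The comparison asks which transcripts of the brain differ that soon after the odor.

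This tissue pools all regions, so fewer cells of a type and less RNA per cell cannot be told apart in any value below. As a coarse check of the tissue label, all 10 measured neuron markers, 10 of 10 astrocyte markers and 9 of 9 oligodendrocyte markers had means above the median of all probe sets (7.24 on the deposited log2 scale), which says nothing of their amounts relative to each other. The deposited arrays were nearly alike: over the 10 arrays the median probe set had an SD of 2.20 millionths of a log2 unit. Values are therefore given as deviations from the control mean in millionths, and differences also as multiples of the SD within groups. Such a deviation cannot be read as a fold change, and a gap in level or spread between probe sets cannot be read as one in RNA. The array medians spanned 15.2 millionths, with control replicate 5 lowest (-8.91 from the control mean) and control replicate 2 highest (6.27).

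No metabotropic glutamate receptor passed the test between DMHF and control rats. Of the 9 probe sets, 0 passed an adjusted p under 0.05 by limma, as did 0 of all probe sets (0%). At an unadjusted p under 0.05, 0 of the 9 were listed by limma and 0 by the exact permutation test, against 5.48% and 5.14% of all probe sets. The groups overlapped for all 9, while they did not overlap for 0.867% of all probe sets. By sign alone 5 of the 9 were higher and 4 lower in DMHF, with a median difference of 0.112 within-group SD (0.0528 over all probe sets, 53.2% of them higher). The differences had sizes of 0.107 to 1.29 SD, and only that of Grm3 exceeded 1 SD. With 5 rats a group the intervals were wide: that of Grm2, for example, ran from -1.01 to 1.73 SD, so shifts of 1 SD either way were not excluded for most of the receptors.

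**Figure D1:**
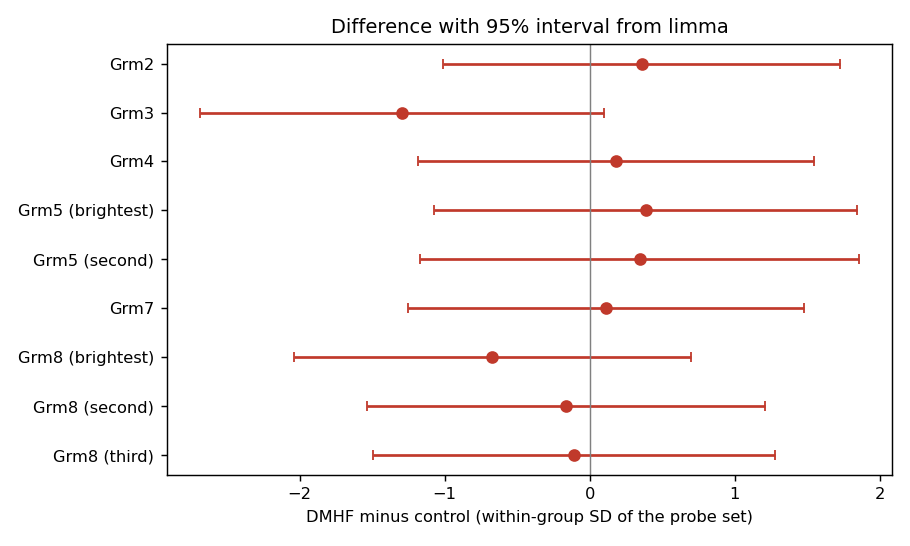
Difference DMHF minus control of each receptor probe set (x axis, in within-group SD of that probe set), as points with 95% intervals from limma. All 9 intervals include 0, and Grm3 at -1.29 lies farthest from it.

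Grm3, a group II receptor of neurons and astrocytes that the peptide NAAG also activates, came nearest to a difference. Its values were -3.35, -0.983, -0.593, -2.66 and -3.03 millionths in DMHF rats and 1.22, -2.88, -1.18, 1.65 and 1.19 in control rats. All 5 DMHF rats lay below the control mean and 2 lay below every control, but control replicates 2 and 3 fell within the DMHF range. The difference was -2.12 millionths (SE 1.01; 95% interval -4.42 to 0.168), with a limma adjusted p of 0.931 and an exact two-sided permutation p of 0.111. It kept its sign with each array left out, from -2.84 to -1.71.

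Grm2, the other group II receptor, is known from terminals of forebrain neurons and from cerebellar Golgi cells. It stood at 1.83, 9.47, 3.03, -2.19 and -3.79 millionths in DMHF rats and at -5.44, 1.06, 5.34, -2.17 and 1.21 in control rats. The highest rat was DMHF replicate 2 and the lowest control replicate 1, and the groups overlapped widely. The difference was 1.67 millionths (SE 2.80), or 0.359 SD, with an exact permutation p of 0.595. It had the other sign without DMHF replicate 2 (-0.280).

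Grm4, a group III receptor known above all from the parallel fiber terminals of cerebellar granule cells, differed between rats within both groups. Its values were 57.0, -48.2, -69.8, 79.3 and 36.7 millionths in DMHF rats and 58.4, 10.5, -86.6, -3.29 and 20.9 in control rats. Both groups held rats far above and far below 0. The SD was 66.1 among DMHF and 53.5 among control rats. The group difference of 11.0 (SE 36.2), or 0.183 SD, was small against that spread (exact permutation p = 0.802). It was -10.6 with control replicate 3 left out, -0.483 with DMHF replicate 1 left out and -6.07 with DMHF replicate 4 left out.

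Grm7, a group III receptor of the presynaptic active zone, had -2.34, -1.81, 2.66, 1.69 and 3.06 millionths in DMHF rats and 2.02, 8.92, 3.40, -2.30 and -12.0 in control rats. The control rats held both extremes, replicate 2 on top and replicate 5 at the bottom. The SD was 2.55 in DMHF and 7.83 in control rats, a gap that was not tested. The difference was 0.652 (SE 3.51), or 0.112 SD (exact permutation p = 0.897), and had the other sign without control replicate 5 (-2.36).

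Grm8, a further presynaptic group III receptor, was nominally lower in DMHF on each of its 3 probe sets. The brightest had -1.68, -5.43, -1.13, -1.31 and -4.59 millionths in DMHF rats and -0.0110, 7.39, 1.41, -0.504 and -8.28 in control rats. All 5 DMHF rats lay below the control mean, yet control replicate 5 lay below them all. Its difference was -2.83 (SE 2.54), or -0.672 SD (exact permutation p = 0.333), being -0.981 once control replicate 2 was left out and -4.90 once control replicate 5 was. The second spanned -6.36 to 3.21 in DMHF and -6.45 to 2.61 in control rats and differed by -0.601 (SE 2.21). The third spanned -3.42 to 2.54 in DMHF and -2.26 to 2.67 in control rats and differed by -0.221 (SE 1.26). With array weights these were -1.29 and -0.541. The sign of the second turned positive without DMHF replicate 2 (0.838) or control replicate 4 (0.0506), and the third without DMHF replicate 2 (0.579), DMHF replicate 4 (0.0575) or control replicate 1 (0.445).

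Grm5, the group I receptor held to the postsynaptic density by Homer proteins, was nominally higher in DMHF on both of its probe sets. The brightest probe set had -0.786, 0.00100, 0.831, 0.286 and 1.50 millionths in DMHF rats and -0.289, -0.654, -1.11, 1.45 and 0.601 in control rats. Each group held a rat near the top and a rat near the bottom. It differed by 0.366 (SE 0.608) and the second by 0.256 (SE 0.492), or 0.386 and 0.347 SD. With single arrays left out the first ran from 0.0830 to 0.729 and the second from 0.0215 to 0.508. The second spanned -0.752 to 1.15 in DMHF and -0.938 to 0.943 in control rats, with 4 of 5 DMHF rats above the control mean. The 3 probe sets of Grm6 had means of 5.74 to 6.29, below the median of all probe sets, and their differences of -1.64, 0.976 and 3.42 millionths (exact permutation p = 0.317, 0.484 and 0.135) did not share a sign.

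**Figure D2:**
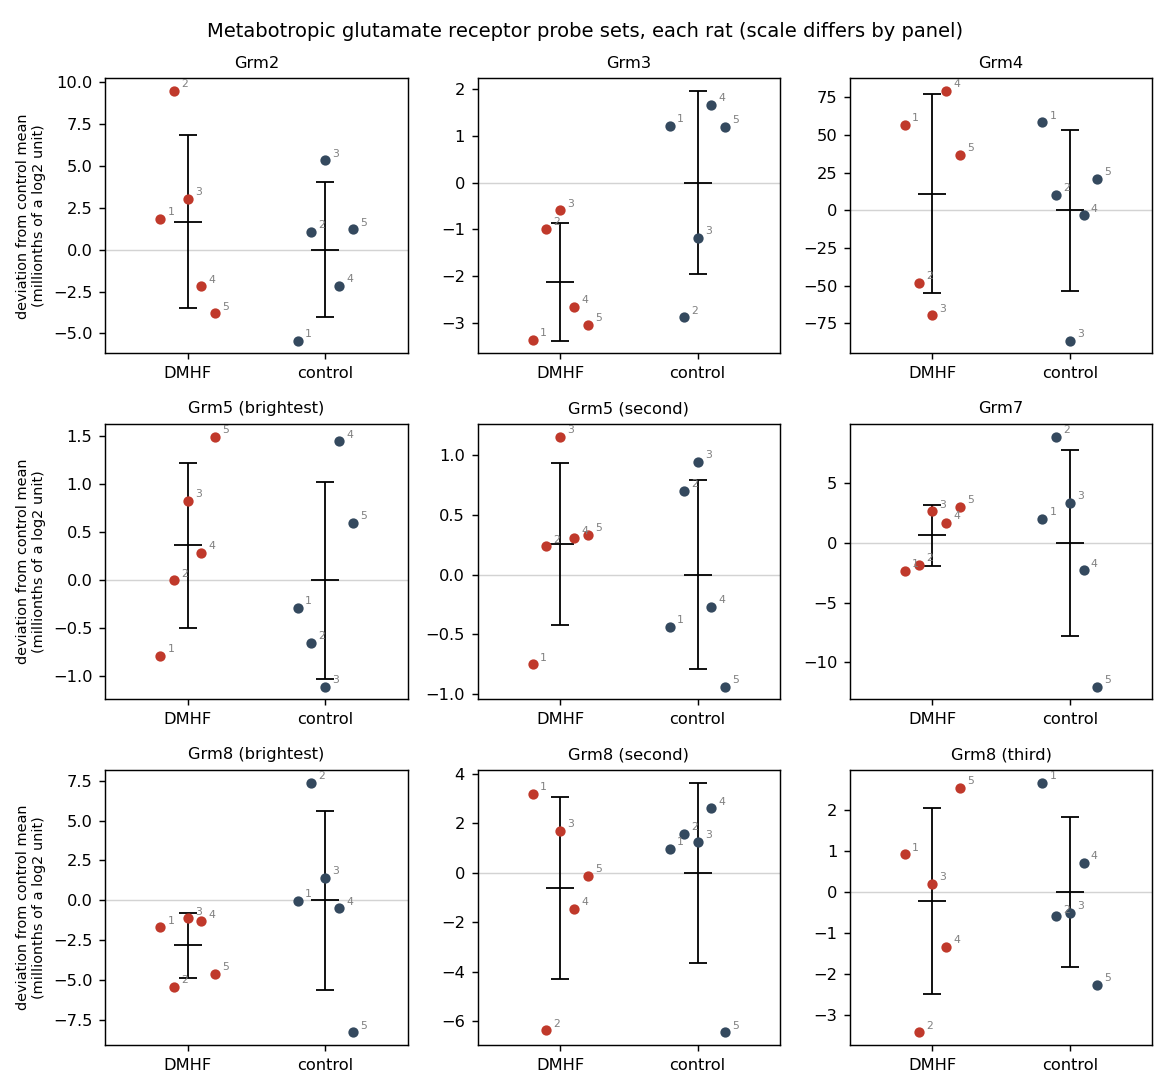
Deviation of each rat from the control mean (y axis, millionths of a log2 unit, own scale in each panel) for the 9 probe sets, with DMHF left and control right. Points are rats labelled with their replicate number, and bars give mean ± SD (n = 5 each); the groups overlap in every panel.

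The spread of Grm4 between rats ran with markers of cerebellar granule cells, as it did with the glial lists given below. Over the 10 rats it correlated with the mean z-score of 7 measured granule cell markers at r = 0.92 (permutation p = 0.00019, adjusted p = 0.0188 over 99 pairs) and Spearman rho = 0.92 (permutation p = 0.00037). The list score was 0.782, -0.936, -1.04, 0.818 and 0.621 in DMHF rats and 0.966, -0.102, -0.641, -0.703 and 0.232 in control rats. DMHF replicates 2 and 3 and control replicate 3 were thus low for both, and DMHF replicates 1, 4 and 5 and control replicate 1 high for both. Control replicate 4, with the lowest score of the controls, had Grm4 near the control mean (-3.29 millionths). In control replicate 2 the score was negative and Grm4 positive (10.5). All 7 marker genes correlated positively with Grm4, from 0.44 for Neurod1 to 0.88 for Cbln1, which granule cells release to organise their synapses on Purkinje cells. Gabra6, the granule cell subunit of the GABA-A receptor, stood at 0.68 and Fat2, a protocadherin of parallel fibers, at 0.87.

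Among glial and Purkinje markers the same receptor correlated with the astrocyte list at r = 0.90 (rho = 0.78; adjusted permutation p = 0.0356 and 0.264) and with the oligodendrocyte list at r = 0.87 (rho = 0.87; adjusted p = 0.0429 and 0.0931). With the Purkinje cell list r was 0.72 (adjusted p = 0.340) and with the neuron list 0.14. By single genes, 9 of 10 astrocyte, 9 of 9 oligodendrocyte and 6 of 7 Purkinje cell markers correlated positively with Grm4, so a shared sign was not particular to granule cell genes. These lists moved together too: over the 10 arrays the granule cell list correlated with the Purkinje list at 0.84, the oligodendrocyte list at 0.84 and the astrocyte list at 0.75, so the 3 relations of Grm4 that passed are not separate findings. They were looked for after the values had been seen. Without the 2 arrays farthest from the median of the list, r was 0.87 for granule cells, 0.81 for astrocytes and 0.85 for oligodendrocytes. With group means removed it was 0.92, 0.91 and 0.92. Without those 2 arrays the adjusted permutation p for granule cells was 0.0737 and 0 of the 3 passed. With 1 array left out, 0 passed without control replicate 2 or 5 or DMHF replicate 1, 3, 4 or 5, and 1 passed without control replicate 1 or DMHF replicate 2, while r with granule cells stayed between 0.89 and 0.95.

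Grm2 ran the other way. It correlated with the astrocyte list at r = -0.81 (rho = -0.83, adjusted permutation p = 0.0980), with oligodendrocytes at -0.70 (rho = -0.58, adjusted p = 0.340) and with granule cells at -0.69 (rho = -0.71, adjusted p = 0.342), none past the threshold. All 7 granule cell genes correlated negatively with it, as did 7 of 7 Purkinje cell, 9 of 10 astrocyte and 8 of 9 oligodendrocyte genes. The granule cell list itself had a mean z-score of 0.0497 in DMHF and -0.0497 in control rats (exact permutation p = 0.841). With that list as a covariate, chosen after seeing the data, the difference of Grm4 was 4.41 in place of 11.0 millionths, and that of Grm3 was -2.06. The share of cerebellum in each sample was not tested.

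**Figure D3:**
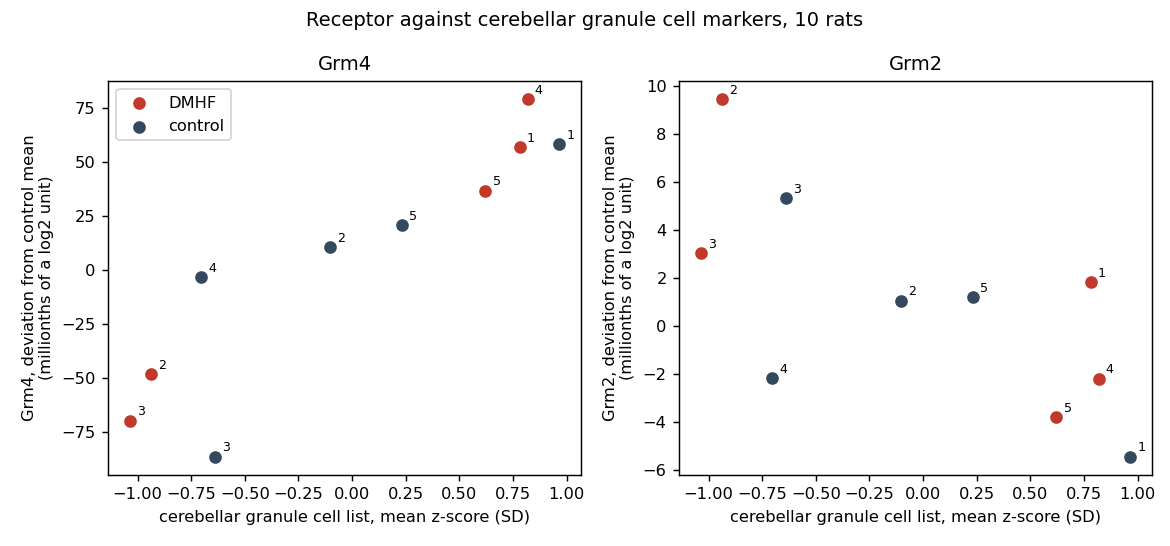
Deviation of Grm4 (left) and Grm2 (right) from the control mean in millionths of a log2 unit (y axis) against the mean z-score of the cerebellar granule cell markers (x axis) in 10 rats, DMHF in red and control in blue, labelled by replicate number. Grm4 rises with the markers (r = 0.92) and Grm2 falls with them (r = -0.69).

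**Figure D4:**
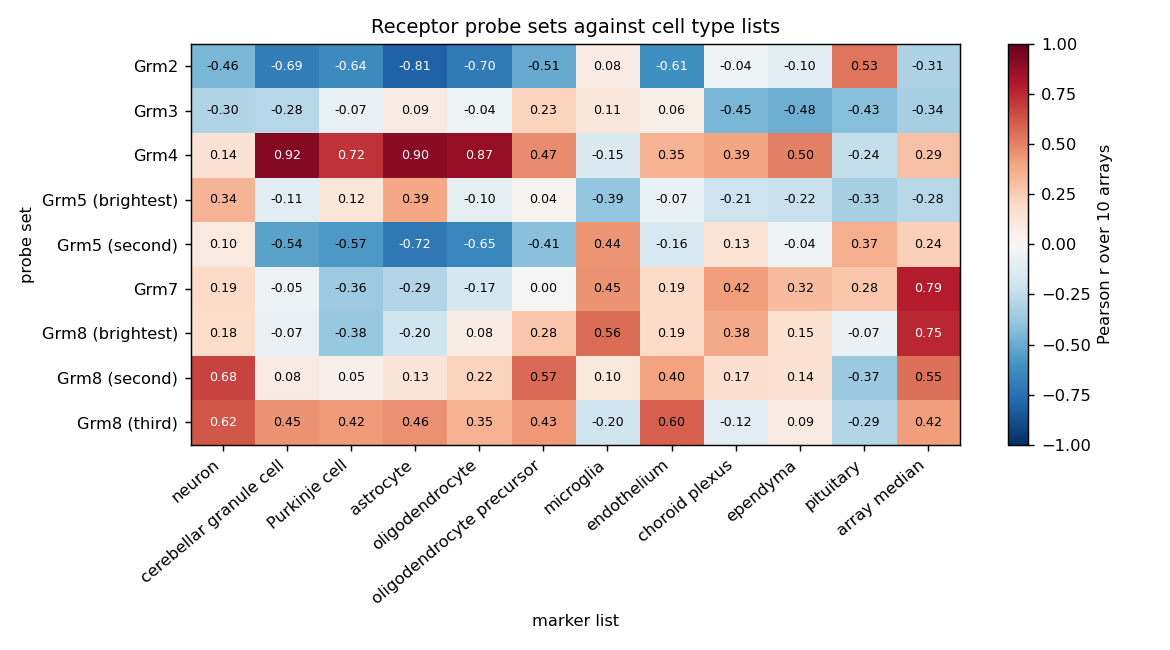
Pearson r over 10 arrays between each receptor probe set (rows) and the mean z-score of 11 marker lists or the array median (columns), red for positive and blue for negative. Grm4 has 0.92, 0.90 and 0.87 with the granule cell, astrocyte and oligodendrocyte lists, and Grm7 has 0.79 with the array median.

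Choroid plexus, ependyma and pituitary markers were nominally higher in DMHF for 10 of 10, 6 of 6 and 8 of 9 measured genes, against 53.0% of all genes. By list score the exact permutation p was 0.222, 0.0714 and 0.159. Only 6, 1 and 1 of these markers had means above the median of all probe sets. Their scores overlapped between groups: -0.640 to 1.48 in DMHF and -1.35 to 0.581 in control rats for choroid plexus, -0.219 to 1.14 in DMHF and -1.35 to 0.579 in control rats for ependyma, and -0.218 to 1.17 in DMHF and -1.43 to 0.317 in control rats for pituitary. The r of Grm3 with these lists was -0.45, -0.48 and -0.43 (adjusted permutation p for ependyma = 0.676), and with group means removed it was -0.27, -0.20 and -0.20. Their part in the value of Grm3 was not tested.

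Among the receptors themselves, 36 pairs of probe sets were compared and 0 passed after adjustment (smallest adjusted permutation p = 0.141), with 6 at an unadjusted p under 0.05. The highest r of 2 different genes was that of Grm7 with the brightest probe set of Grm8, 0.81 (rho = 0.67, permutation p = 0.00897, adjusted p = 0.141). It rested on the extreme rats, control replicates 2 and 5, since without the 2 arrays farthest from the median of Grm7 r was 0.27. Both also followed the array median, Grm7 at r = 0.79 (rho = 0.24, adjusted permutation p = 0.0853) and Grm8 at 0.75 (rho = 0.48, adjusted p = 0.0853). Without the 2 arrays of most extreme median these were -0.14 and 0.067, and given the array median the partial r of the pair was 0.54. Grm2 and Grm4 correlated at -0.72 (rho = -0.75, adjusted permutation p = 0.141), and -0.70 without the 2 arrays farthest from the median of Grm2. The lowest r was that of Grm2 with the third probe set of Grm8, -0.74 (rho = -0.56, adjusted permutation p = 0.141). Without those 2 arrays it was -0.38.

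Probe sets of 1 gene did not always agree. The 3 of Grm8 correlated at 0.69 for the brightest with the second, 0.72 for the second with the third and 0.25 for the brightest with the third (adjusted permutation p = 0.170, 0.141 and 0.836). Without the 2 arrays farthest from the median of the first-named probe set these were 0.68, 0.14 and 0.27. The 2 of Grm5 correlated at -0.07, while the second followed Grm7 at 0.74 (rho = 0.84, adjusted permutation p = 0.141). Without the 2 arrays farthest from the median of the second Grm5 probe set, its r with Grm7 was 0.51. The brightest probe set of Grm5 had a mean of 8.46 and the second of 7.09, below the median of all probe sets, as did the second (7.12) and the third (6.65) of Grm8.

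**Figure D5:**
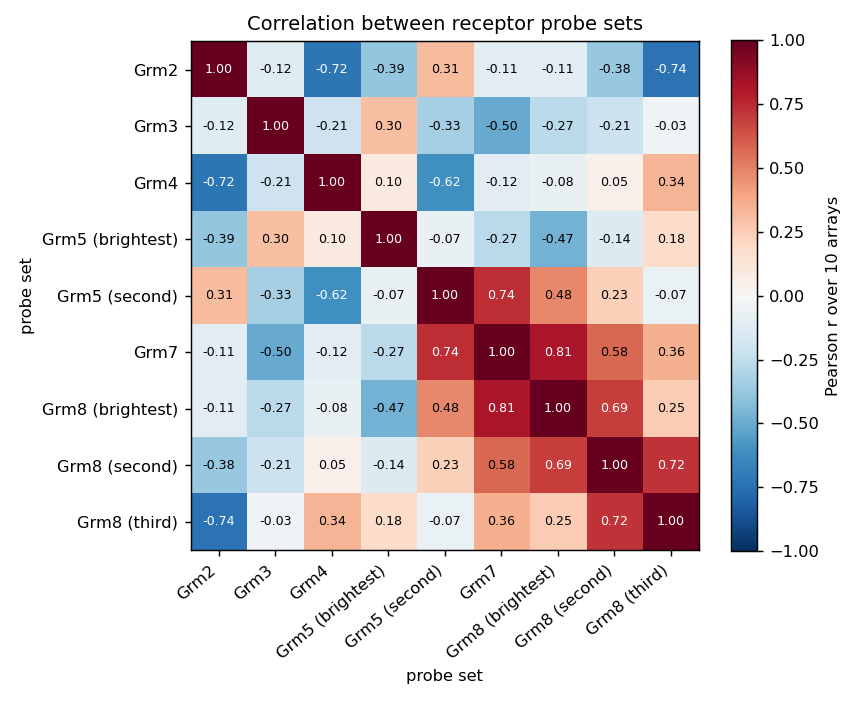
Pearson r over 10 arrays between the 9 receptor probe sets (rows and columns), red for positive and blue for negative. Grm7 and the brightest Grm8 probe set reach 0.81, Grm2 and the third Grm8 probe set -0.74, and Grm2 and Grm4 -0.72. No pair passed after adjustment.

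The start sites of Grm7 and Grm8 are shown because this pair, which did not pass, had the highest r of 2 receptors; they were chosen after the values were seen. The windows, from RefSeq on GRCr8, hold 300 bases around the start, 5′ to 3′ on the gene's strand. Capitals mark GC boxes (GGGCGG) and E-boxes (CANNTG) found on either strand, and the CRE half-site TGACG was searched as well.
Grm7, chr4:145286476-145286775, plus strand: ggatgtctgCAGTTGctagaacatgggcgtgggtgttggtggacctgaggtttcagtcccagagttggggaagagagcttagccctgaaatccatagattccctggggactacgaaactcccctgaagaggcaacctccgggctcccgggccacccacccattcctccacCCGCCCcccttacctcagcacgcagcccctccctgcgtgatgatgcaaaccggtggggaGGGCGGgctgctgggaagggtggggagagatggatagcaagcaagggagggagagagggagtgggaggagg
Grm8, chr4:57687457-57687756, minus strand: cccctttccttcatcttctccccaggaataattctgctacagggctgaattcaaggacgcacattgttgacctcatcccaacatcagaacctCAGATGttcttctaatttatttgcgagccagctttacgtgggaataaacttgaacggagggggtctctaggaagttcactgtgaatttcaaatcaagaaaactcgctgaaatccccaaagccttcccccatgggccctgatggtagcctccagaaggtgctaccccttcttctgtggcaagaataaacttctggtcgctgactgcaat
Grm7 held 2 GC boxes and Grm8 0, a motif present in 33.1% of 33469 rat windows. Each held 1 E-box (72.1% of windows) and 0 CRE half-sites (21.2%). No motifs overlapped. The window of Grm7 had 62.0% G and C and that of Grm8 47.3%. The 2 windows thus shared the E-box alone among these motifs.

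The 2 genes most like each receptor over the 10 arrays were searched among 13976 genes by the r of their brightest probe sets. For Grm4 they were Rhot1, a mitochondrial transport GTPase (r = 0.96), and Zkscan1, a zinc finger protein (0.96). For Grm2 they were Olig3 (0.97) and Pigr (0.96), with means of 5.98 and 6.19, below the median of all probe sets. For Grm3 they were Zfp707 (0.94) and Isg20l2 (0.90), for Grm5 Gpd1, a glycerol phosphate dehydrogenase (0.90), and Lrrfip1 (0.90), for Grm7 Necab1, a neuronal calcium-binding protein (0.90), and Ube2j1 (0.90), and for Grm8 Adam9, a membrane protease (0.94), and Ckmt1, a mitochondrial creatine kinase (0.88). They were picked by r among this many genes over 10 arrays and carry no test.

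The signalling partners of the receptors did not pass either. Of 66 measured genes in 5 lists, 30 were nominally higher and 36 lower in DMHF, 0 passed limma and 1 had an unadjusted p under 0.05, with a median difference of -0.0845 SD (0.0477 over all 14217 genes, 53.0% of them higher and 4.80% at an unadjusted p under 0.05). The Gq and calcium list of group I receptors had 4 of 12 higher and 8 lower, with a median of -0.290 SD. Its smallest p values belonged to Gna11, a Gq-class alpha subunit (-2.58 millionths, SE 1.15), Trpc1, a cation channel (-0.594, SE 0.414), and Gnaq (22.9, SE 23.0). Gna11 had -1.31, -4.57, -1.73, -4.12 and -1.15 in DMHF rats and 1.50, 0.478, 1.05, 0.677 and -3.70 in control rats, so that 4 controls lay above all DMHF rats and control replicate 5 within them.

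In the Gi/o and cyclic AMP list of group II and III receptors 11 of 20 were higher and 9 lower, with Gnao1, the alpha subunit of Go, at -2.45 (SE 1.13, exact permutation p = 0.0714), Kcnj3, a channel that Gi/o opens, at 3.78 (SE 2.72) and Adcy5, an adenylyl cyclase, at -1.07 (SE 1.08). In the list of scaffolds and partners 7 of 17 were higher and 10 lower. Ncdn, which binds and stabilises the group I receptor Grm5 at the membrane, was the 1 gene with an unadjusted p under 0.05. It had 0.628, 1.27, 1.94, 1.82 and 0.0880 millionths in DMHF rats and -0.682, -0.182, 0.618, 0.518 and -0.272 in control rats. Of the DMHF rats 4 lay above all controls, and the difference was 1.15 (SE 0.461), or 1.69 SD, with a limma adjusted p of 0.876.

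Shank1, a scaffold that links Homer to the postsynaptic density, stood at -0.736 (SE 0.440) and Elfn2, an adhesion protein that binds group III receptors, at -1.36 (SE 0.972). The Homer genes did not share a sign, with Homer1 at -6.36 (SE 6.26), Homer2 at -4.93 (SE 3.81) and Homer3 at 3.44 (SE 2.67). None of these passed limma.

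Genes of glutamate supply and removal were higher for 7 of 13 and lower for 6. Slc38a1, a glutamine transporter of neurons, differed by 0.630 (SE 0.345), the glial glutamate transporters Slc1a3 by 1.16 (SE 0.925) and Slc1a2 by -8.20 (SE 5.82). This list held 9 genes with a positive and 4 with a negative r to Grm4, with Glud1, glutamate dehydrogenase, at 0.96 and Slc1a3 at 0.86. At the other end stood Slc17a7, a vesicular glutamate transporter, at -0.70, Slc1a1, a neuronal glutamate transporter, at -0.55 and Slc1a2 at -0.51. For NAAG, the peptide agonist of Grm3, 1 of 4 measured genes was higher and 3 lower. Rimklb, a NAAG synthase, stood at -9.63 (SE 7.81), Slc17a5, a vesicular carrier, at -0.268 (SE 0.285) and Rimkla, the other synthase, at -0.841 (SE 1.15). None passed.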

How the data were processed

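Values were 1 table of log2 expression values with 31099 probe sets and 10 arrays, made by the authors from Affymetrix arrays; 57 Affymetrix control probe sets were left out. Per the labels' protocols, biotinylated cRNA was made from 100 ng of total RNA with a 3′ kit. R 2.7.2 is named in the submitters' processing notes. How arrays were normalized and probes summarised is, in the sources used here, not given, and the deposited values, from 5.25 to 14.2, were taken as log2 from their range. How the nearly equal arrays arose is unknown; the number of arrays limits precision.

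Groups came from the sample titles. DMHF was compared with control by limma 3.58.1 in R 4.3.3 over 31042 probe sets (two-sided, Benjamini-Hochberg, threshold 0.05; prior degrees of freedom 0.841), and single probe sets by an exact permutation test over 252 assignments (smallest p 0.00794). Correlations used 100000 resamples, or all orders where arrays were left out. The code was tested on simulated data. Names came from the platform annotation: 20826 probe sets named 1 gene, and the brightest stood for each of 14217 genes.

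Receptors and the 16 lists were chosen with earlier results of these data known. Named genes were all receptor probe sets, the 3 smallest p per pathway list, the Homer genes, Slc1a2, Slc1a3, and the 2 genes most like each receptor; Neurod1, Cbln1, Gabra6, Fat2, Glud1, Slc17a7, Slc1a1, Gfap, Mef2c and Neurod2 were added after their values were seen. Alternatives were other scalings, filters, variance models, weights, a replicate block and each array left out.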

Additional observations from a re-analysis of the deposited data

Results flagged for a closer look

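Of 18 groups of 5 arrays (9 probe sets, DMHF and control), 1 held an array far from the others: in the second Grm8 probe set control replicate 5 lay at -6.45 millionths of a log2 unit with a gap to the next rat of 0.820 of the group's range, above Dixon's critical value. Chance marks about 1 group in 20. Without that rat the difference of this probe set was -2.21 in place of -0.601. The same rat was the lowest control for Grm7 (-12.0), the other Grm8 probe sets (-8.28 and -2.26), the second Grm5 probe set (-0.938) and the array median (-8.91). It lay above the control mean for Grm2 (1.21), Grm3 (1.19), Grm4 (20.9) and the brightest Grm5 probe set (0.601).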

How the results depend on the processing

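The 0 receptor calls stayed 0 under every alternative run, and so did the 0 calls over all probe sets except after quantile normalization (13, of which 2 higher and 11 lower, among 10076 probe sets left) and without DMHF replicate 2 (range 0 to 1 over single arrays left out). After quantile normalization 8 of the 9 receptor probe sets were constant and had no value, and the second Grm5 probe set differed by 10.98 in place of 0.256 millionths. Of 157 alternative values of single probe sets, 147 kept sign and side of the threshold. The other 10, all with an array left out, changed sign. Adjusted p ranged from 0.668 to 1. The 147 overstate how stable the signs were, since several settings could not alter the difference itself. These were the replicate block, the filter on brightness, the trended and robust variance, the brightest probe set per gene and the exact permutation test. The common array median moved every difference by the same small amount (Grm2 to 1.62 from 1.67 millionths). The ranges with single arrays left out were -0.280 to 3.03 for Grm2, -10.6 to 31.2 for Grm4, 0.0830 to 0.729 for the brightest and 0.0215 to 0.508 for the second Grm5 probe set, -2.36 to 2.88 for Grm7, -2.21 to 0.838 for the second and -0.913 to 0.579 for the third Grm8 probe set. Pairs of receptor probe sets past the threshold numbered 0 (0 to 0 with arrays left out) but 8 with the array median subtracted, a step that takes the same values, wider than most receptors' spread, from each. The 3 relations of Grm4 with marker lists became 0 without the 2 farthest arrays and 0 to 3 with single arrays left out, where its r with granule cells stayed between 0.89 and 0.95. Whether the replicate numbers pair the rats was not tested. For the r given next, each probe set had its group means removed and was scaled to equal spread. They thus compare deviations from the group mean and not the arrays' levels, which were nearly alike. On these deviations same-numbered DMHF and control arrays correlated at 0.029 to 0.27, and arrays of other numbers at -0.18 to 0.20. Of the DMHF arrays, 3 of 5 correlated best with their own number. A replicate block gave 0 calls over all probe sets and 0 for the receptors.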

Other observations

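A telencephalon list, put together after the values were seen and therefore not tested, ran opposite to Grm4. Its 10 measured genes, among them the transcription factors Mef2c and Neurod2, all correlated negatively with Grm4 over the 10 rats, from -0.86 for Mef2c to -0.28, and the list's mean z-score at -0.88. Grm2 correlated with it at 0.38, Grm3 at 0.38 and the second Grm5 probe set at 0.62. The list ran opposite to the cerebellar granule cell list as well (r = -0.79).

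Gfap, the intermediate filament of astrocytes, had an unadjusted limma p of 0.0297 (adjusted p = 0.876). It stood at 14.4, 1.81, 8.28, 35.2 and 20.8 millionths in DMHF rats and at 3.36, 4.64, 1.21, 3.19 and -12.4 in control rats, with DMHF replicate 2 alone inside the control range. The astrocyte list as a whole had 5 of 10 genes nominally higher and 5 lower.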
